A study of Homo sapiens with 6 samples.

Results

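The polyamine transport genes were 7 genes chosen by symbol: ATP13A2, ATP13A3, ATP13A1, SLC3A2, SLC12A8, SLC18B1 and GPC1. They are 7 of the 30275 genes named in the deposited splicing table and held 531 of its 721551 events. Of these events, 151 were exons, 129 were introns, 160 were alternative acceptor sites and 91 were alternative donor sites. The comparison was made in SKNBE2, a human neuroblastoma line with amplified MYCN, and all values come from this 1 line. The DFMO group had 3 libraries from cells given 250 µM of difluoromethylornithine, which blocks ornithine decarboxylase, for 4 days. The Control group had 3 libraries of the same line without the drug. The labels do not say whether the replicates were separate cultures, so p-values measure only the spread between these libraries, which may be technical.

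Cells obtain polyamines (putrescine, spermidine and spermine) by making them from ornithine and by taking them up from outside. ATP13A2 and ATP13A3 are P5B-type ATPases that move polyamines out of endocytic and lysosomal compartments into the cytosol, and heparan sulfate carried by GPC1 (glypican-1) binds extracellular polyamines and takes part in their uptake. SLC3A2 (CD98 heavy chain) and SLC12A8 have also been tied to polyamine transport, SLC18B1 carries polyamines into vesicles, and ATP13A1 is the related P5A ATPase of the endoplasmic reticulum, which removes misplaced transmembrane helices and is not known as a polyamine pump.

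Most splicing events of these genes were read at one form only. Coverage was sufficient in every library (a deposited coverage score of LOW or better) for 411 of the 531 events. Of the 121 covered exons, 97 were included at 95% or more and 17 at 5% or less. Of the 113 covered introns, 110 were retained at 5% or less. Only 16 events, in 5 genes, met the filters for a test, namely that same coverage with at least 10 reads per library and a mean between 5% and 95%. GPC1 and SLC12A8 had none. After limma's test on the log2 odds of inclusion, 3 of the 16 had an adjusted p below 0.05, and 2 were also different by at least 10 points and so called. Over all classes 467 of 15339 tested events were called, a background of 3.04%, and 5.48% passed the adjusted p alone.

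The events that passed were in ATP13A3 and SLC3A2. In ATP13A3 they were a pair of coding exons, both included more often with DFMO. In SLC3A2 it was the ratio of unspliced to spliced reads at a 9349-nt intron, which was higher with DFMO. The exons are shown with capitals for the exon and lower case for 15 bases of the neighbouring exon on each side, and they lie on the minus strand of GRCh38 at chr3:194457094-194457174 and chr3:194412199-194412288. The SLC3A2 sequence, shown because an annotated start lies in that intron, is the 250 bases before this start on the plus strand at chr11:62880646-62880895 (RefSeq, GRCh38.p14), with capitals for GGGCGG, the GC box, or its reverse complement.
ATP13A3 81-nt exon: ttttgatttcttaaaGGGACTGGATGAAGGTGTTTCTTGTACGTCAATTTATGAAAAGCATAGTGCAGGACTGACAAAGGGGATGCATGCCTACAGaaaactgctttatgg
ATP13A3 90-nt exon: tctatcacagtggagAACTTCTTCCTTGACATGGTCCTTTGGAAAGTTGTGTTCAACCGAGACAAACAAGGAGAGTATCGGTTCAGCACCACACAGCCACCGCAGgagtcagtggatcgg
SLC3A2 inner promoter: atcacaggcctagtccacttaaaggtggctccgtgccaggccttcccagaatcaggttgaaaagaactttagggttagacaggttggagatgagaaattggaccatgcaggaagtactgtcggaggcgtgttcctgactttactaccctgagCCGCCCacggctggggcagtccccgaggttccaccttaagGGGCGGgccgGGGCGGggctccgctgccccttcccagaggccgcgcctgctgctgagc

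**Figure D1:**
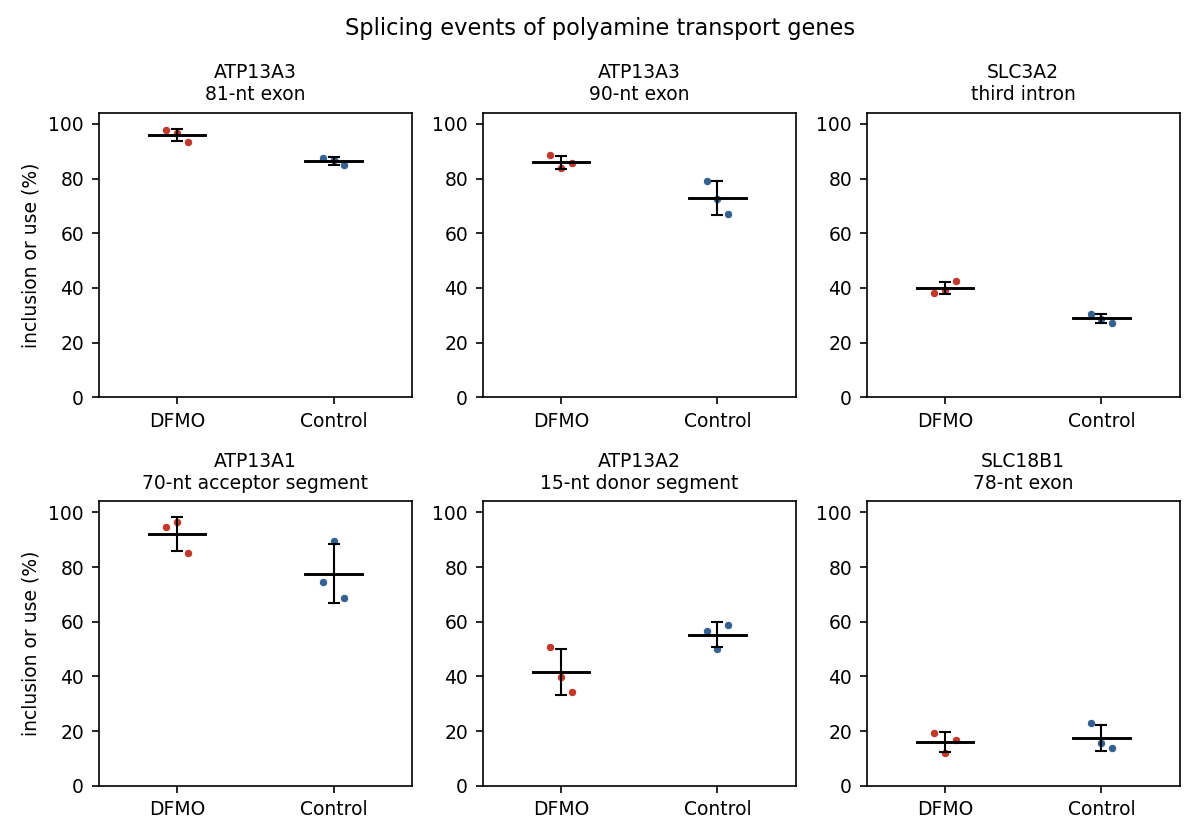
Percent of inclusion, retention or splice-site use (vertical axis, 0 to 100%) of the tested event with the largest difference in each of 5 genes and of the further ATP13A3 exon, with 1 dot per library, a line at the mean and bars of 1 SD (n = 3 per group, DFMO red, Control blue). The groups do not overlap in the 2 ATP13A3 exons and the SLC3A2 intron, and they overlap in the other 3 panels.

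ATP13A3, a P5B ATPase of endosomes, lies on the minus strand of chromosome 3. Its 81-nt exon is fully coding in 4 of the 9 protein-coding GENCODE v29 transcripts and is exon 3 of the 30 exons of transcript ATP13A3-213. It was included at 97.9%, 96.5% and 93.5% in DFMO replicates 1, 2 and 3, and at 87.7%, 86.9% and 84.9% in Control replicates 1, 2 and 3. Every DFMO library was above every Control library. The means were 96.0% ± 2.24 with DFMO and 86.5% ± 1.41 in Control (SD, n = 3 each), a difference of 9.47 points and of 1.99 in log2 odds (SE 0.41, adjusted p = 0.0111, limma). The event passed the adjusted p but, being under 10 points, was not called.

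The reads behind this exon separated at the junction that leaves it out. Reads of the skipping junction numbered 4, 6 and 12 in the DFMO libraries and 24, 21 and 33 in the Control libraries. In sum there were 22 with DFMO and 78 in Control, while the inclusion junctions had 741 and 304 reads with DFMO and 691 and 300 in Control. The inclusion reads of the 2 groups were thus close and the skipping reads were not. One inclusion junction gave more reads than the other in every library, as in Control replicate 3, where they were 241 and 131.

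The 90-nt exon lies near the other end of the gene, as exon 29 of the same transcript. It is fully coding in 2 of the 9 coding transcripts, and like the 81-nt exon its length is a multiple of 3, so that skipping it leaves the reading frame unshifted. It was included at 88.6%, 83.7% and 85.7% in DFMO replicates 1 to 3, and at 79.2%, 72.5% and 67.0% in Control replicates 1 to 3. The groups did not overlap, and Control replicate 3 was the lowest library. The means were 86.0% ± 2.45 with DFMO and 72.9% ± 6.09 in Control, a difference of 13.1 points and of 1.18 in log2 odds (SE 0.25, adjusted p = 0.0132, limma).

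The skipping junction of the 90-nt exon had 29, 30 and 31 reads in the DFMO libraries and 47, 57 and 95 in the Control libraries. The sums were 90 with DFMO and 199 in Control, beside 370 and 769 inclusion reads with DFMO and 364 and 703 in Control. As at the 81-nt exon, the inclusion junctions were uneven in every library. Of 7500 exons tested, 3.45% were called in either direction and 2.71% were called higher, and 5.72% passed the adjusted p alone. The call of the 90-nt exon ended without DFMO replicate 1 (11.8 points, adjusted p = 0.0633) and without Control replicate 3 (10.2 points, adjusted p = 0.0738), and without Control replicate 3 the 81-nt exon had 8.69 points and an adjusted p of 0.0587. The 81-nt exon crossed 10 points without DFMO replicate 3 (10.7) and without Control replicate 1 (10.1). Neither exon passed on the percent scale, without the variance trend or in a quasi-binomial model.

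Along the rest of ATP13A3 inclusion was nearly complete. Of 32 covered exons, 25 were at 95% or more and 5 at 5% or less, which leaves the 81-nt and the 90-nt exon as the 2 in between. Among the exons outside the filter, an 18-nt exon, picked after its values were seen, stood at 99.1% with DFMO and 96.4% in Control. It was not tested. The other tested event of the gene, a 7642-nt intron, was at 9.37% ± 4.34 with DFMO and 7.42% ± 3.15 in Control (adjusted p = 0.734, limma).

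**Figure D2:**
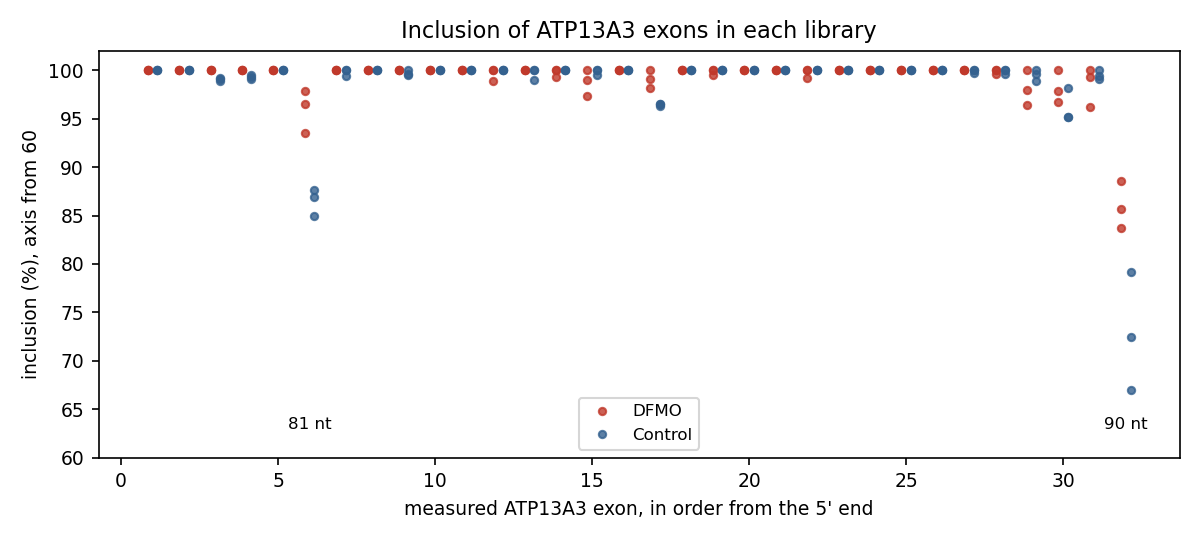
Inclusion in percent (vertical axis, from 60%) of each ATP13A3 exon with reads and a mean above 5%, ordered from the 5′ end of the gene, with 1 dot per library (DFMO red and to the left, Control blue). The 81-nt and 90-nt exons are the positions where libraries fall below 90%, and there the DFMO libraries lie above the Control libraries.

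SLC3A2, the heavy chain that brings amino acid transporters of the SLC7 family to the cell surface, was measured at 11 introns on the plus strand of chromosome 11. The third of them, chr11:62871670-62881018, had a deposited retention of 38.1%, 39.1% and 42.6% in DFMO replicates 1 to 3, against 30.4%, 28.8% and 27.3% in Control replicates 1 to 3. The groups did not overlap. The means were 39.9% ± 2.35 with DFMO and 28.8% ± 1.58 in Control, a difference of 11.1 points and of 0.71 in log2 odds (SE 0.18, adjusted p = 2.08e-03, limma), and of 3684 tested introns 3.8% were called. The call ended without DFMO replicate 3 (9.79 points), without the variance trend (adjusted p = 0.247, limma) and in the quasi-binomial model (adjusted p = 0.114).

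The unspliced reads of this intron came from its 3′ end. At the 5′ end there were 1, 0 and 0 reads in the DFMO libraries and 0, 0 and 0 in the Control libraries. At the 3′ end there were 238, 185 and 193 reads with DFMO and 133, 118 and 162 in Control. The exon-exon junction over the intron had 194, 144 and 130 reads with DFMO and 152, 146 and 216 in Control. The deposited percent averages both ends, so a figure near 40% was made from an intron with almost no reads across its first base.

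GENCODE v29 places the starts of 4 protein-coding SLC3A2 transcripts inside this intron. The first exon of SLC3A2-201 begins at base 62880872 and runs to 62881447, past the end of the intron, so that its RNA gives unspliced reads at the 3′ end and none at the 5′ end. SLC3A2-213 and SLC3A2-216 begin at 62880896, the start of the RefSeq promoter shown above. That window held GGGCGG or its reverse complement 3 times, and the windows of the other 2 SLC3A2 starts in the same table held it 1 time each. Of all 35116 promoter windows of 250 bases in that table, 42.6% held it at least 1 time and 12.9% at least 3 times. Retention of the last bases of the intron and transcription from these starts cannot be told apart by the reads of this junction.

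Scaled to 1e+06 event reads of each library (RPM), the 3′-end reads were 2.38, 2.23 and 2.24 RPM with DFMO, against 1.57, 1.52 and 1.57 RPM in Control. The 3 DFMO libraries were all above the Control libraries, with means of 2.28 ± 0.08 with DFMO and 1.55 ± 0.03 in Control, 1.47-fold (exact permutation p = 0.1, two-sided, the smallest that 3 against 3 can give). The spliced reads over the intron were 1.73 ± 0.22 RPM with DFMO and 1.92 ± 0.16 in Control, and these overlapped (exact permutation p = 0.4). Taken at the 3′ end alone, a measure added after the reads had been seen, the unspliced share was 55.1%, 56.2% and 59.8% with DFMO and 46.7%, 44.7% and 42.9% in Control. It differed by 12.3 points (exact permutation p = 0.1). This share, like the deposited percent, counts as spliced only the junction over the whole intron. Reads of the junction out of a 93-nt exon inside the intron, in sum 159 with DFMO and 162 in Control, are left out. The share would be lower with them.

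The neighbouring introns give the junction reads on either side of it. The 2 introns before the third averaged 2.52, 2.54 and 2.39 RPM of junction reads in the DFMO libraries and 2.48, 2.74 and 2.94 in the Control libraries, which overlapped (exact permutation p = 0.3). The 8 introns after it averaged 3.99, 3.85 and 3.805 with DFMO and 3.76, 3.62 and 3.61 in Control, which did not overlap, with a ratio of 1.06 (exact permutation p = 0.1). Reads before the third intron came to 63.96% ± 1.76 of those after it with DFMO and 74.3% ± 7.87 in Control, and the groups overlapped at DFMO replicate 2 and Control replicate 1 (exact permutation p = 0.2). These averages leave out reads that skip the first of the 93-nt exons described below, in sum 142 with DFMO and 158 in Control. The ratio is therefore not a share of transcripts.

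**Figure D3:**
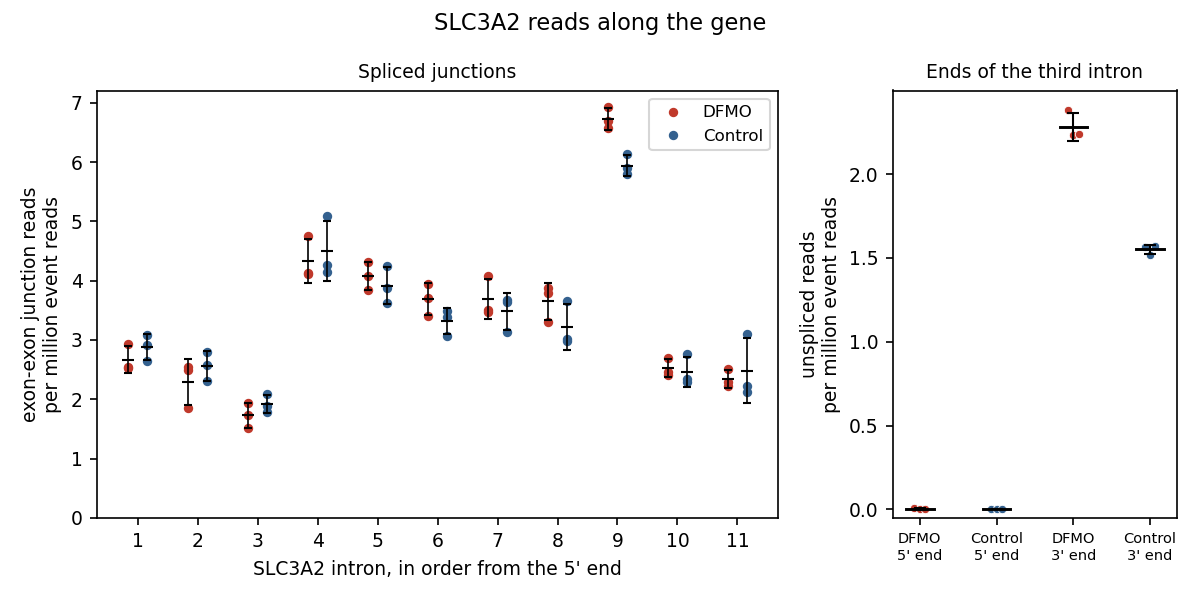
Left, exon-exon junction reads per 1e+06 event reads at the 11 SLC3A2 introns in order from the 5′ end, and right, unspliced reads per 1e+06 event reads at the 2 ends of the third intron, with 1 dot per library and bars of 1 SD about the mean (n = 3 per group, DFMO red and to the left, Control blue). The 3′ end had 2.28 RPM with DFMO and 1.55 in Control, and the 5′ end had close to none in either group.

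SLC3A2 also has 3 tested exons of 93 nt each, of which the third lies within the 9349-nt intron. The inclusion of these exons differed from each other far more than between the groups. The first was included at 77.4% ± 5.05 with DFMO and 77.2% ± 2.66 in Control (adjusted p = 0.954, limma). The second was included at 92.4% ± 4.62 with DFMO and 93.3% ± 2.25 in Control (adjusted p = 0.941, limma). The third, which lies in the intron, was included at 26.6% ± 4.32 with DFMO and 24.4% ± 1.05 in Control (adjusted p = 0.748, limma). The differences were 0.21, -0.91 and 2.20 points, each within the spread of its libraries.

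ATP13A2, the lysosomal polyamine exporter, had 6 tested events, the most of the 7 genes, and 0 passed the adjusted p. The largest difference was at a donor site on the minus strand of chromosome 1, where the exon at chr1:17004692-17004821 ends 15 bases further downstream in its long form. The sequence is shown with those bases in capitals because the extension keeps the frame.
ATP13A2 15-nt donor extension: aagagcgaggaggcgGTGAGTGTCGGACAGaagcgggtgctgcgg
The long form was used at 50.9%, 39.7% and 34.4% in DFMO replicates 1 to 3 and at 56.6%, 50.1% and 59.0% in Control replicates 1 to 3. DFMO replicate 1 lay above Control replicate 2, so the groups overlapped by 1 library. The difference was -13.6 points, larger in size than for the called exon of ATP13A3, and it did not pass (adjusted p = 0.490, limma). The event had 30 to 73 reads per library, and of 1721 tested donor sites 2.21% were called. The other 5 tested events of ATP13A2, 3 of them acceptor forms, 1 a 170-nt exon and 1 a 2140-nt intron, had adjusted p values from 0.649 to 0.943.

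ATP13A1, the P5A ATPase, also had its largest difference at an event that did not pass. At an acceptor site on the minus strand of chromosome 19, the exon at chr19:19653969-19654144 starts 70 bases earlier in its long form. The extension, in capitals, is not a multiple of 3 and is therefore shown beside the one above.
ATP13A1 70-nt acceptor extension: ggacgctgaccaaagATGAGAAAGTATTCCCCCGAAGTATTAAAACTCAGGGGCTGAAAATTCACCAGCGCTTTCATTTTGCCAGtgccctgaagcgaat
The long form was used at 94.5%, 96.6% and 85.1% in DFMO replicates 1 to 3 and at 74.4%, 89.5% and 68.7% in Control replicates 1 to 3. Control replicate 2 lay above DFMO replicate 3. The difference was 14.5 points on 29 to 52 reads per library (adjusted p = 0.352, limma), and of 2434 tested acceptor sites 1.23% were called. A 33-nt acceptor form of the gene was at 6.30% ± 2.26 with DFMO and 4.21% ± 2.31 in Control (adjusted p = 0.867, limma).

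SLC18B1, a vesicular polyamine carrier, had 1 tested event, a 78-nt exon on chromosome 6 at chr6:132790785-132790862 that no GENCODE v29 transcript of the gene holds. It was included at 19.3%, 12% and 16.8% in DFMO replicates 1 to 3 and at 22.8%, 15.6% and 14.0% in Control replicates 1 to 3. The groups overlapped, with a difference of -1.42 points (adjusted p = 0.904, limma).

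SLC12A8 and GPC1 gave no tested event. SLC12A8, a member of the cation-chloride cotransporter family, had 2 covered events of 49. Its best-read event in the middle range, a 114-nt coding exon, had an inclusion of 100.0%, 84.3% and 93.6% with DFMO and 74.7%, 92.3% and 89.96% in Control on 23 to 56 reads, and the groups overlapped (exact permutation p = 0.4). GPC1, the glypican, had 24 covered events of 30. All 7 of its covered exons were at 95% or more and all 8 covered introns at 5% or less, so none of these showed a second form above 5%.

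The amount of spliced transcript was followed by the reads of the exon events, since the series holds no gene counts. A level here is the mean over a gene's covered exon events of log2 of 1 plus RPM. It is per event and not per base, counts both junctions of an included exon, and so also moves with inclusion. A difference of levels understates the change of a gene with few reads. Fewer expressing cells and less RNA per cell cannot be told apart in it.

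The 7 genes moved little at this level. ATP13A3 was the 1 gene past the adjusted p of 0.05, and 0 of 7 passed it together with a change of 1.5-fold. Over all 9232 genes 45.5% passed the adjusted p and 0.347% passed with 1.5-fold, so 1 of 7 is below the share of all genes. ATP13A3 stood at 2.17, 2.19 and 2.16 in DFMO replicates 1 to 3 and at 2.24, 2.26 and 2.29 in Control replicates 1 to 3 on the log2 scale. The groups did not overlap, and the difference was -0.09 (SE 0.03, adjusted p = 0.0297, limma). It did not pass without DFMO replicate 1 or 3 or without Control replicate 2 or 3, nor with the replicate number as a block (adjusted p = 0.0567), nor when libraries were scaled by exon event reads (adjusted p = 0.0591), a scaling added after the values had been seen.

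The order of the levels was the same in both groups but for ATP13A2 and SLC18B1. SLC3A2 was highest, at 2.61 ± 0.06 with DFMO and 2.57 ± 0.03 in Control, a difference of 0.04 (adjusted p = 0.374, limma). ATP13A3 followed, and ATP13A1 stood at 2.03 ± 0.02 with DFMO and 1.98 ± 0.06 in Control (adjusted p = 0.250, limma). A step below came GPC1 at 1.24 ± 0.03 with DFMO and 1.26 ± 0.04 in Control (adjusted p = 0.625, limma). ATP13A2 and SLC18B1 were neighbours whose libraries overlapped in both groups. ATP13A2 stood at 1.11, 1.15 and 1.08 in the DFMO libraries and 1.08, 1.03 and 1.03 in the Control libraries. Its groups narrowly missed each other, and the difference of 0.07 did not pass (adjusted p = 0.106, limma). SLC18B1 stood at 1.09 ± 0.05 with DFMO and 1.09 ± 0.02 in Control (adjusted p = 0.990, limma).

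SLC12A8 was lowest and rested on 1 exon event. Its levels were 0.25, 0.28 and 0.33 in the DFMO libraries and 0.60, 0.27 and 0.30 in the Control libraries. Control replicate 1 stood apart from the other 5 libraries, and the groups overlapped (difference -0.10, adjusted p = 0.336, limma).

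**Figure D4:**
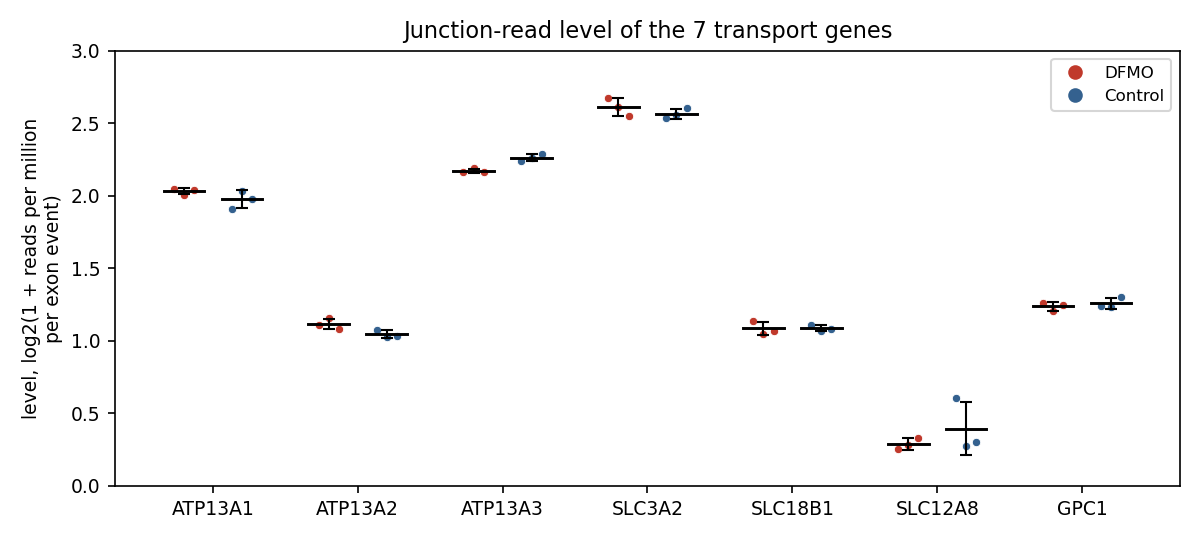
Junction-read level of the 7 genes (vertical axis, log2 of 1 plus RPM, mean over the exon events of the gene), with 1 dot per library, a line at the mean and bars of 1 SD (n = 3 per group, DFMO red and to the left, Control blue). The groups part in ATP13A3, at 2.17 with DFMO and 2.26 in Control, and by less in ATP13A2, at 1.12 with DFMO and 1.05 in Control, while SLC12A8 has the widest spread in Control.

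The exon-exon junctions of the introns gave a second view of the same transcripts. Of 30 ATP13A3 introns with 10 reads or more on average, 24 had a lower RPM with DFMO, with a median ratio of 0.944. For SLC12A8 it was 7 of 9 introns, at a median of 0.771 on at most 24.5 reads. More introns were higher with DFMO in ATP13A1, at 18 of 25 and a median of 1.05, and in ATP13A2, at 18 of 28 and a median of 1.09. Introns of 1 gene share their transcripts, and these counts carry no test. Levels built from these junctions passed the adjusted p in 4 of the 7 genes, namely ATP13A1 (0.07), ATP13A2 (0.12), ATP13A3 (-0.09) and SLC12A8 (-0.20 on the log2 scale), where 50.7% of all genes passed.

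Genes related to the 7 by family or partner moved in both directions, and their exon-event levels by at most 0.31 on the log2 scale. Levels from the intron junctions, which are summed per gene and measure more genes, are given for some genes only. Other genes also differ between these measures. By exon events 20.5% of all genes rose and 24.9% fell by the same rule. By intron junctions 50.7% of 11837 genes passed, and 45.6% of those were higher with DFMO. Of the P5 ATPases, 3 of 5 were measured and 1, ATP13A3, fell. The other carriers were linked to polyamines or cationic amino acids or belonged to families of such carriers. Of these, 4 of 15 were measured and 1 rose, the arginine and lysine transporter SLC7A2 (1.98 with DFMO and 1.87 in Control, difference 0.11, adjusted p = 0.0317, limma). The count of 1 became 0 without DFMO replicate 1 or 3, without Control replicate 1 or 3 and with the replicate block. With intron junctions 8 carriers were measured, of which 2 rose and 2 fell. SLC7A1 and SLC7A2 rose by 0.12 and 0.14, and SLC18A1, a monoamine carrier related to SLC18B1, fell by 0.14. SLC45A4 fell to 0.63 with DFMO, against 0.95 in Control (difference -0.32, adjusted p = 7.16e-04, limma). It had few reads, and DFMO replicate 1 (0.731) lay close to Control replicate 3 (0.738). Of the partners of SLC3A2, 2 of 9 were measured by exon events and both fell, while 0 fell without DFMO replicate 1 or Control replicate 1. SLC7A5, the leucine transporter LAT1, stood at 3.20 with DFMO and 3.31 in Control (adjusted p = 0.0263, limma), and SLC7A6, the y+LAT2 exchanger, at 2.26 with DFMO and 2.37 in Control (adjusted p = 0.0242, limma). The intron junctions measured 1 partner more, the cystine exchanger SLC7A11, which rose to 1.31 with DFMO, against 0.76 in Control (difference 0.55, adjusted p = 2.48e-08, limma). The median exon-event difference of these 3 lists was 0.06, 0.004 and -0.11, against -0.01 over all genes.

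GPC1 acts through heparan sulfate, and 18 of the 31 genes of glypicans and heparan sulfate synthesis were measured. Of these, 7 rose, 3 fell and 8 did not pass, with a median of 0.06. B4GALT7, which adds a galactose of the linker between core protein and chain, rose to 1.54 with DFMO, against 1.23 in Control (difference 0.31, adjusted p = 1.19e-03, limma). By intron junctions its difference was 0.52. FAM20B, the xylose kinase of that linker, rose by 0.22 and EXTL2 by 0.18. The sulfotransferase HS3ST2 fell to 1.18 with DFMO, against 1.49 in Control (difference -0.31, adjusted p = 2.90e-03, limma). HS3ST2 rests on 1 exon event, and its intron junction gave 0.54 with DFMO and 0.55 in Control (adjusted p = 0.904, limma). EXT1 and NDST1, of chain elongation and sulfation, differed by -0.11 and -0.09. By intron junctions alone, the glypicans GPC5 and GPC3 rose by 0.56 and 0.34 and the sulfotransferase HS6ST1 fell by 0.52. GPC5 and GPC3 had few reads, with levels of 0.99 and 1.13 with DFMO and 0.43 and 0.79 in Control, and HS6ST1 rests on 1 intron. Among 6 of 9 cation-chloride cotransporters measured, SLC12A9 rose by 0.16, SLC12A4 fell by 0.25 and 4 did not pass, with a median of -0.03. SLC12A4 had 1 exon event, and over its 23 introns it stood at 2.01 with DFMO and 2.66 in Control (difference -0.65, adjusted p = 3.23e-11, limma). With intron junctions 2 of 7 cotransporters rose and 3 fell.

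The genes of polyamine synthesis and catabolism held the largest exon-event differences of the 6 lists plotted. Of 16 measured of 25, 4 rose, 6 fell and 6 did not pass, with a median of -0.02, and with intron junctions 4 rose and 8 fell of 21. AMD1, the decarboxylase that feeds aminopropyl units into spermidine and spermine synthesis, stood at 4.66 ± 0.03 with DFMO and 2.90 ± 0.08 in Control (difference 1.76, adjusted p = 1.27e-07, limma). OAZ1, the antizyme, stood at 4.99 ± 0.02 with DFMO and 6.01 ± 0.02 in Control (difference -1.02, adjusted p = 1.27e-07, limma). AZIN1 rose by 0.62 and ADI1 by 0.14, while OAZ2 and ENOPH1 fell by 0.79 and 0.24 on the log2 scale. SAT1, measured by intron junctions only, fell to 0.60 with DFMO, against 1.95 in Control (difference -1.35, adjusted p = 4.84e-22, limma). In that measure OAZ1 differed by -1.07.

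**Figure D5:**
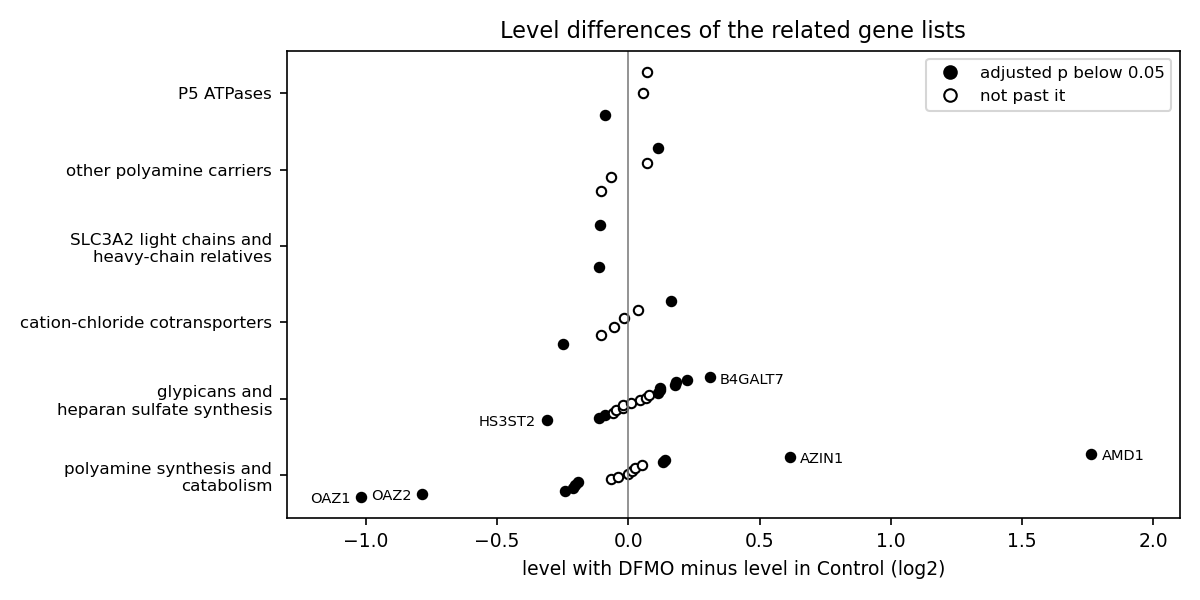
Difference of the junction-read level, DFMO minus Control (horizontal axis, log2), for each measured gene of 6 lists, with filled dots for an adjusted p below 0.05 and open dots for the others, and names for passing genes beyond 0.3 in either direction. Genes of the 4 transporter lists lie within 0.25 of 0, while AMD1 at 1.76 and OAZ1 at -1.02 mark the exon-event range of the polyamine synthesis and catabolism genes.

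The labelled cell type was checked against marker lists. Of 14 noradrenergic neuroblastoma markers, 13 were measured, at levels of 1.02 to 7.13. Of these, 6 rose, 3 fell and 4 did not pass, with CHGB, PHOX2A and GATA3 higher by 0.49, 0.49 and 0.43 and TBX2 and DDC lower by 0.23 and 0.14. Of 11 mesenchymal markers 2 were measured, VIM at 2.75 with DFMO and 2.68 in Control and CD44 at 0.66 in both groups, and neither passed. The intron junctions measured 7 of them, of which FN1 and COL1A1 fell by 0.40 and 0.21 and VIM rose by 0.08 (adjusted p = 4.36e-06, 0.0352 and 0.0477, limma). The part of these shifts in the values of the transport genes was not tested.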

How the data were processed

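Stranded mRNA libraries of SKNBE2 cells were analysed, per the labels' protocols, and the build was GRCh38, per the submitters' processing notes; the aligner was not given in the sources used here. In the table as deposited stood the authors' percent of inclusion, retention or site use for each event and library, with a coverage score and reads as text. Percents recomputed from the reads lay within 0.5 points. For introns, which read number belongs to which end was checked against GENCODE v29: where the second number was at least 20 and the first at most 1, 29.3% of 474 introns held an annotated start that runs past the 3′ end, against 8.05% of 609 introns in the opposite case. Event reads per library, which can count a read more than once, ran from 77648922 to 103250467. Replicates differed by 1.99 to 2.33 times the counting variance, so counting error alone is too narrow.

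For events, 0.5 was added to both read numbers and the log2 odds were fitted over the whole table with limma 3.58.1 (R 4.3.3), using a robust prior whose variance followed the expected counting variance. Two-sided p-values were Benjamini-Hochberg adjusted within each of 4 event classes. Levels were fitted over all genes with a mean-variance trend and 1 added to the reads per 1e+06 event reads. The code was tested on simulated data. Named were all members, each tested event past the adjusted p, the tested event with the largest difference and the best-read untested event per gene, and the top 3 passing genes per list and direction. The 18-nt ATP13A3 exon was picked after its values were seen. So were SLC7A1, SLC7A11, SLC18A1, SLC45A4, GPC3, GPC5, HS6ST1, SAT1, FN1 and COL1A1 by intron junctions. The members and lists were chosen with earlier results of these data known. Libraries of the same replicate number had correlations of -0.0202, -0.00217 and -0.00697 in the log2 odds of exons, centred within groups. Levels were not checked in this way, so whether libraries were paired by number is not settled. Some items that the rule names are not reported here.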

Additional observations from a re-analysis of the deposited data

How the results depend on the processing

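The count of called events (2) became 1 on the percent scale and 0 without the variance trend, in the quasi-binomial model, or with balanced reads at both ends. That last setting drops exons and introns whose reads at the 2 ends are not balanced in every library. It left 9 of 16 events tested and dropped the 3 passing events, which did not meet it. The count of called events was 1 to 3 when 1 library was left out. The count past the adjusted p (3) became 1 on the percent scale and 0 in the other 3 settings, and was 1 to 3 with 1 library left out. With the replicate number as a block, called events stayed at 2 and the adjusted p of the SLC3A2 intron was 3.41e-03, while the 1 gene past the adjusted p by level became 0. That count was also 0 when libraries were scaled by exon event reads, 2 with summed exon reads, 4 with intron junctions, and 0 to 1 with 1 library left out; the count at 1.5-fold was 0 in all 15 alternatives. The SLC18B1 exon reversed without DFMO replicate 2 (0.605 points) and without Control replicate 1 (1.26 points), and was -3.17 to 1.26 with 1 library left out. The SLC18B1 level reversed with median-ratio scaling (0.0103), a pseudocount of 0.1 (0.0133) and scaling by exon event reads (0.0187), and without DFMO replicates 2 or 3 or Control replicate 1 (-0.0267 to 0.0177 with 1 library left out). The GPC1 level did so without Control replicate 3 (-0.0340 to 0.000874). Over the 15 alternatives, genes that rose numbered 3 to 9 (main 7) in the heparan sulfate list and 2 to 4 (main 4) in the polyamine synthesis and catabolism list, and genes that fell 1 to 3 (main 3) and 6 to 9 (main 6). Of the SLC3A2 partners 0 to 2 fell (main 2) and 0 to 1 rose (main 0), and of the other carriers 0 to 2 rose (main 1) and 0 to 2 fell (main 0). The causes were not tested. The tested ATP13A1 and ATP13A2 events with differences of 14.5 and -13.6 points had 29 to 73 reads per library and did not pass. Whether the number of reads was the reason was not tested.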

Other observations

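Some events of the transport genes lay in the middle range but missed the filters on reads or score. A 66-nt acceptor form of ATP13A1 had 56.3% ± 19.99 with DFMO and 22.5% ± 24.4 in Control on 2 to 7 reads per library, and the groups overlapped (exact permutation p = 0.3, two-sided). A second 15-nt donor form of ATP13A2 had 94.0% ± 4.16 with DFMO and 94.7% ± 1.17 in Control on 17 to 51 reads (exact permutation p = 0.8, two-sided). A 3-nt acceptor form of the third 93-nt exon of SLC3A2 had 36.1% ± 25.5 with DFMO and 35.8% ± 18.6 in Control on 3 to 12 reads. With 3 libraries a group, 0.1 is the smallest exact p.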
